A study of Mus musculus with 6 samples.

Results

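The sebaceous gland empties onto the hair shaft an oil made of wax esters, sterol esters and triglycerides, and 7 genes that build or regulate this oil were followed in dorsal skin treated with rebamipide. They were taken by name from the deposited table of 21959 genes, Awat1, Awat2, Dgat2l6, Far2, Soat1, Fa2h and Mc5r, and all 7 were found and passed the expression filter that left 14875 genes for testing. RNA had been sequenced from 3 wild-type male C57BL/6 mice per group, shaved on the back at 7 weeks of age. The study gives them as in telogen, the resting phase of the hair cycle. One group received the vehicle, 30% dipropylene glycol in 70% distilled water, and the other received 3% rebamipide, a gastric ulcer drug, on the shaved skin daily for 7 days. No allele was altered in either group, and dorsal skin of all layers was taken, so that gland cells were a minor part of each sample. In such bulk samples fewer gland cells and less RNA per gland cell cannot be told apart.

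In a sebocyte, the lipid-filled cell of the gland, fatty acyl-CoA is reduced to a fatty alcohol, which acyltransferases join to a further fatty acid to give a wax ester. Cholesterol is stored as a sterol ester by a separate acyltransferase of the endoplasmic reticulum. The cell then disintegrates and its content becomes sebum, which in the mouse coats the fur and repels water. Melanocortin peptides act on the gland through a receptor of their own, and the same lineage depends on the nuclear receptor PPARγ.

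The libraries held 38676018 to 39915276 counts in the vehicle group and 32709801 to 34706852 in the rebamipide group. Levels are given as CPM, counts scaled to a common library size, with TMM factors that correct for a few genes taking a large share of a library, since mitochondrial transcripts took 2.59% to 5.36% of vehicle counts and 13.3% to 22% of rebamipide counts. The third rebamipide library stood apart. It held 4 counts of the basal keratins Krt5 and Krt14 together, against 76526 to 141906 in the vehicle libraries, 24150 in the first and 11470 in the second rebamipide library, so the label of skin was not met by its defining epidermal markers there. Of the 5 growing hair follicle markers measured, all 5 were at 0 counts in it and 3 were at 0 in the second rebamipide library. Brown adipocyte markers moved the other way, with a summed level of 31.5 to 137 CPM in the vehicle libraries and 4948 to 12728 CPM in the rebamipide libraries, and Ucp1 at 0 counts in each vehicle library. Tests are therefore given with and without the third rebamipide library, and the part of this difference in tissue content in the results was not tested.

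Of the 7 genes, 1 fell in rebamipide-treated skin at an adjusted p-value under 0.05 (edgeR's quasi-likelihood test with Benjamini-Hochberg adjustment over all genes), and this was Mc5r. Of all genes tested, 6.51% passed on the lower side by the same rule and 14.1% on the higher side. The fitted log2 fold changes of the 7 genes ran from -2.87 to -1.79 with a median of -2.23, where the median over all genes tested was -0.17. General keratinocyte markers had similar medians, -2.53 for the 6 basal and -2.22 for the 5 suprabasal markers. All of these markers were fitted below 0, and 0 of them passed the adjusted p-value. By the cutoffs that the study set, a raw p below 0.05 with a change of more than 1 log2 unit, Mc5r, Soat1 and Awat2 counted as lower, 3 of 7, against 14.5% of all genes. For 5 of the 7 every rebamipide library lay below every vehicle library, as it did for 24.0% of all genes, and Awat1 and Dgat2l6 were the exceptions. In the deposited FPKM, which are scaled by total counts alone, all 7 were without overlap, as were 47.9% of all genes.

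**Figure D1:**
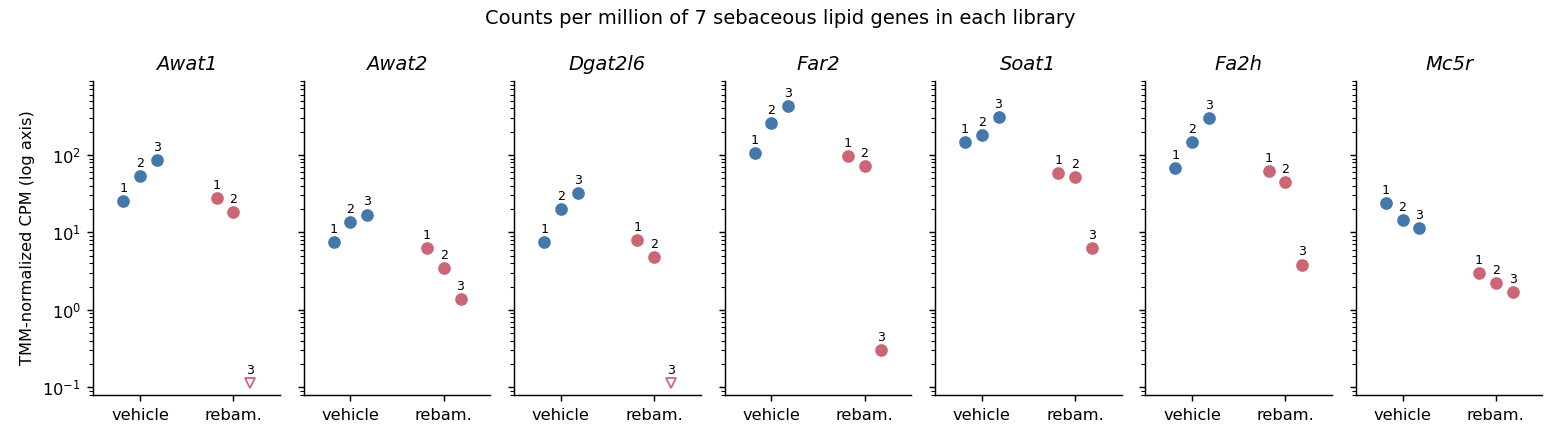
TMM-normalized CPM of the 7 genes on a log axis, 1 panel per gene, with 1 point per library and the replicate number above it. Open triangles stand at the limit that 0 counts allow (3 counts, 0.114 CPM) for Awat1 and Dgat2l6 in the third rebamipide library, which is the lowest point in every panel, and Mc5r alone has its highest vehicle value in replicate 1.

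Wax ester synthesis begins with Far2 (ENSMUSG00000030303, chromosome 6, 147948757 to 148084256, plus strand, in the deposited table, whose build is GRCm39 by the submitters' notes), a fatty acyl-CoA reductase that supplies the alcohol. It was at 107, 255 and 427 CPM with vehicle and at 96.2, 71.8 and 0.305 CPM with rebamipide. All rebamipide values lay under the lowest vehicle value, the first only just, and the third rested on 8 counts. The fitted log2 fold change was -2.23 (SE 1.51, adjusted p = 0.304 by edgeR). Leaving out the third rebamipide library gave -1.64 (SE 0.61, adjusted p = 0.134 by edgeR). Ergic2 lies across Far2 on the opposite strand, and the strand setting of the counting is not given in the sources used here. Reads from bases that both genes share could therefore not be told apart. The counts of the pair did differ, since Ergic2 had 479 to 1391 counts per library, with 810 in the third rebamipide library where Far2 had 8.

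The acyltransferases Awat1 and Awat2 join alcohol and acyl-CoA to a wax ester, and Dgat2l6 belongs to the same DGAT2 family. In the deposited table the 3 genes lie on chromosome X within 175985 bases that hold 5 genes, Awat2 at 99445827 to 99486323 on the minus strand, Dgat2l6 at 99568444 to 99589750 and Awat1 at 99615857 to 99621811, both on the plus strand. Paralogs share sequence, so reads of the family may have been split by the counting. Awat1 (ENSMUSG00000015665) was at 25.2, 53.6 and 86.3 CPM with vehicle and at 28.1, 18.4 and 0 CPM with rebamipide. Its groups overlapped, because the first rebamipide library was above the first vehicle library. Awat1 had a fitted log2 fold change of -1.83 (SE 1.54, adjusted p = 0.401 by edgeR), and its 95% interval, -5.57 to 1.91, covers both directions. Dgat2l6 (ENSMUSG00000067597) was at 7.49, 20.2 and 32.7 CPM with vehicle and at 7.9, 4.75 and 0 CPM with rebamipide. It overlapped in the same pair of libraries, and its fitted log2 fold change was -2.25 (SE 1.44, adjusted p = 0.281 by edgeR). Without the third rebamipide library the values were -1.24 (SE 0.55) for Awat1 and -1.66 (SE 0.66) for Dgat2l6, with adjusted p-values of 0.186 and 0.156 (edgeR).

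Awat2 (ENSMUSG00000031220) was at 7.45, 13.6 and 17 CPM with vehicle and at 6.22, 3.43 and 1.37 CPM with rebamipide. The groups did not overlap, and the third rebamipide library still held 36 counts where the 2 neighbours had 0. The fitted log2 fold change of Awat2 was -1.79 (SE 0.61, adjusted p = 0.0825 by edgeR), and it was -1.39 (SE 0.51, adjusted p = 0.133 by edgeR) when the third rebamipide library was left out. Leaving out the first rebamipide library instead took Awat2 past the threshold (-2.40, adjusted p = 0.0422 by edgeR). Otud6a, a gene inside Awat2 on the opposite strand, had 0 counts in every library.

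The bases before the transcription start of the wax ester genes are shown because Awat1, Dgat2l6 and Far2 shared the near absence from the third rebamipide library while Awat2, which has 2 starts in RefSeq, did not. Of the 7 genes, 5 had a promoter in the RefSeq table of build GRCm38.p6, a build other than that of the deposited positions, and each line gives the 250 bases before a start on the gene's strand. Capitals mark CCAAT, or GGGCGG, the letters of a GC box, read on either strand.
Awat1 promoter, chrX:100571997-100572246, plus strand: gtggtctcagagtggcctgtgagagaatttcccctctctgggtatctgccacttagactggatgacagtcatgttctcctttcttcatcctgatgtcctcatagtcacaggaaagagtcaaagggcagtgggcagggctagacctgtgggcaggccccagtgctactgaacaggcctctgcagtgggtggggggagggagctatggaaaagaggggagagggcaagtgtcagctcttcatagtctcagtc
Dgat2l6 promoter, chrX:100524588-100524837, plus strand: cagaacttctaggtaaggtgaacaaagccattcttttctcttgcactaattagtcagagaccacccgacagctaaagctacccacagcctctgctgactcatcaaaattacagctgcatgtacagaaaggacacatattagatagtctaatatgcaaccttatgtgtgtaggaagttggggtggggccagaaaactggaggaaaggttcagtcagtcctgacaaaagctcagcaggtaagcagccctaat
Far2 promoter, chr6:148047166-148047415, plus strand: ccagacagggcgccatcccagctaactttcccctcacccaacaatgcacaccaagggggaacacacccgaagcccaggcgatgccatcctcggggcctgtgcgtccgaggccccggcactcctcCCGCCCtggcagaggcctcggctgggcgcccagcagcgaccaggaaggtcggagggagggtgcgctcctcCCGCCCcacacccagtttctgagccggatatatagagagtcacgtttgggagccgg
Awat2 downstream start, chrX:100412588-100412837, minus strand: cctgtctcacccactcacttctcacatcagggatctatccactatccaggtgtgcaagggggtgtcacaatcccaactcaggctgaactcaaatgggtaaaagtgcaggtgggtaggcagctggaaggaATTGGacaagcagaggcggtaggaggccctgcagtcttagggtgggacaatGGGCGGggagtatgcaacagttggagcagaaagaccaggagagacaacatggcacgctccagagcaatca
Awat2 upstream start, chrX:100442718-100442967, minus strand: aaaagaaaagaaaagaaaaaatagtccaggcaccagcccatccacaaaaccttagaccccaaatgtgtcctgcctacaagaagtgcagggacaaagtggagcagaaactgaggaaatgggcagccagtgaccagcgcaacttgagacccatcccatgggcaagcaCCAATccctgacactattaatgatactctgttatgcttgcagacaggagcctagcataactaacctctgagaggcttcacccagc
The letters AGGTCA, the half-site that many nuclear receptors bind, were in none of the 6 windows of the 5 genes, Soat1 included, on either strand. The direct repeat of this half-site with 1 base between, which contains it, was therefore absent too, and so was the box TATAAA. Of 32851 windows of this length in the RefSeq table, 14% held the half-site, 0.0335% the direct repeat and 12.4% the box. CCAAT, chosen after the windows were seen, as was GGGCGG, stood once in each Awat2 window and once in that of Soat1, and in 33.8% of all windows. GGGCGG stood once in the window of the downstream Awat2 start and 2 times in that of Far2, and in 32.7% of all windows. The windows of Awat1 and Dgat2l6 held none of these motifs.

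Soat1 (ENSMUSG00000026600, chromosome 1, 156252095 to 156301901, minus strand), the sterol O-acyltransferase that esterifies cholesterol and is also active in macrophages, was at 147, 178 and 310 CPM with vehicle. With rebamipide it was at 57.8, 52.2 and 6.22 CPM, so the groups were well apart, and the third rebamipide library kept 163 counts. Soat1 had a fitted log2 fold change of -2.45 (SE 0.81, adjusted p = 0.0767 by edgeR). With the third rebamipide library left out the error was smaller and Soat1 passed, at -1.94 (SE 0.41, adjusted p = 0.0426 by edgeR). Macrophage markers (5 of 5 measured, none at 0 counts in any library) summed to 419 to 948 CPM with vehicle and 228 to 841 CPM with rebamipide, and their part in the level of Soat1 was not tested.

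Fa2h (ENSMUSG00000033579, chromosome 8, 112071767 to 112120456, minus strand), which hydroxylates fatty acids for sphingolipids and serves both sebum and myelin, was at 68.2, 148 and 300 CPM with vehicle and at 61.3, 44.5 and 3.85 CPM with rebamipide. The first rebamipide library was just below the lowest vehicle library. Its fitted log2 fold change was -2.23 (SE 1.01, adjusted p = 0.15 by edgeR), and -1.69 (SE 0.64, adjusted p = 0.14 by edgeR) with the third rebamipide library left out. Schwann cell markers (5 of 5 measured, none at 0 counts) summed to 198 to 531 CPM with vehicle and 129 to 323 CPM with rebamipide, and their part in the level of Fa2h was not tested.

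Mc5r (ENSMUSG00000007480, chromosome 18, 68470575 to 68475517, plus strand), the G protein-coupled melanocortin receptor of sebaceous and other exocrine glands, was at 24.2, 14.6 and 11.5 CPM in the vehicle libraries. In the rebamipide libraries it was at 2.96, 2.22 and 1.68 CPM. The highest rebamipide value was far below the lowest vehicle value, and the third rebamipide library, with 44 counts, was near the other 2. Which cells of the skin samples held the Mc5r reads was not tested. Mc5r fell by 2.87 on the log2 scale (SE 0.41, 7.32-fold lower, adjusted p = 0.0109 by edgeR). The call stood with the third rebamipide library left out (log2 fold change -2.68, adjusted p = 0.0314 by edgeR). It was lost when the second vehicle library was left out (-2.97, adjusted p = 0.0747 by edgeR), a fit in which 0 genes of the whole table passed, 4116 had a raw p below 0.05 and DESeq2 called 1419 lower and 2097 higher. It was also lost without the second rebamipide library (-2.84, adjusted p = 0.0624 by edgeR), where 1 gene of the whole table passed and 4062 had a raw p below 0.05. DESeq2 called Mc5r in both of these subsets.

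**Figure D2:**
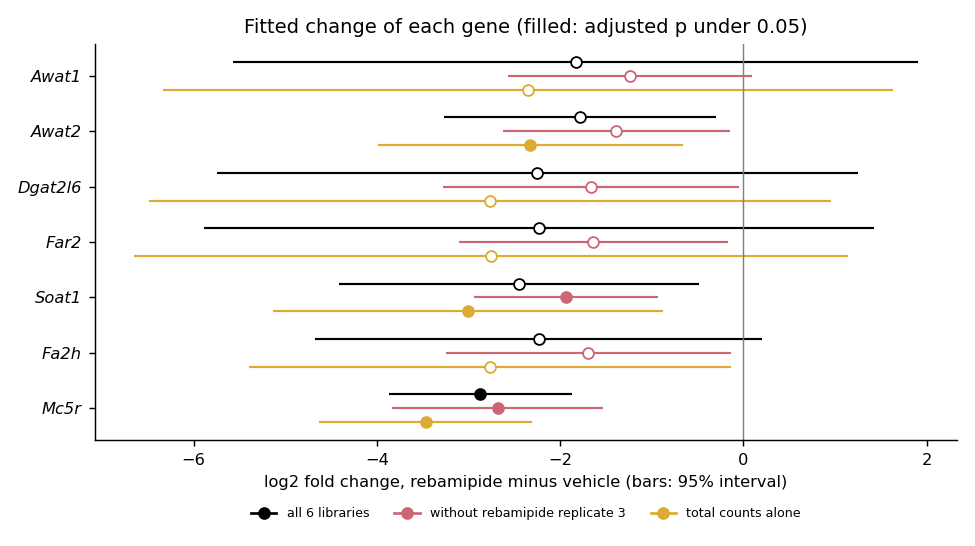
Fitted log2 fold changes of the 7 genes (x axis, rebamipide minus vehicle) with 95% intervals, for the edgeR fit of all 6 libraries, without the third rebamipide library, and with total counts alone as scaling. Filled points passed an adjusted p-value of 0.05, which Mc5r did in all 3 fits, Soat1 in the latter 2 and Awat2 with total counts alone, and the intervals of Awat1, Dgat2l6 and Far2 are the widest of the 7 in the fit of all libraries.

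How many of the 7 passed depended on the tool. Without the third rebamipide library edgeR called 2 of them lower (2.49% of all genes) and 6 met the cutoffs of the study (13.0% of all genes), with Awat1 as the exception. Leaving out the third vehicle library, 1 met them by edgeR, against 14.3% of all genes. DESeq2, the tool of the study, called Mc5r, Soat1, Awat2 and Fa2h lower with all libraries, 4 of 7 against 17.0% of all genes. Without the third rebamipide library DESeq2 called 5, these and Far2 (adjusted p = 0.0321, DESeq2), against 12.2% of all genes. With total counts alone, where the median over all genes was -0.78, edgeR called Mc5r, Soat1 and Awat2, 3 of 7 against 25.2% of all genes. On the deposited FPKM, also scaled by total counts, limma called 5 of 7 lower on log2(FPKM + 1) and 3 of 7 on log2(FPKM + 0.1), where 32.3% and 32.1% of all genes were lower. The cutoffs of the study were met by 7 and 5 of the 7 on these scales and by 20.5% and 32.5% of all genes. The fitted size of 3 genes also depended on the tool, since with limma-voom the log2 fold change was -4.42 (SE 2.21) for Awat1, -4.17 (SE 1.96) for Dgat2l6 and -4.04 (SE 1.93) for Far2. The fitted direction was lower for each of the 7 genes in every alternative that gave a value, 21 or 22 per gene.

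Levels were compared between genes per kilobase of the length in the deposited table. In vehicle skin Fa2h was highest at 57.2 ± 39.1 CPM per kilobase (SD, n = 3 libraries), followed by Awat1 at 39.6 ± 22, Far2 at 36 ± 21.9, Soat1 at 21.6 ± 8.83, Awat2 at 5.98 ± 2.29, Dgat2l6 at 4.24 ± 2.66 and Mc5r at 4.2 ± 1.65. Neighbours in this order overlapped in their ranges, except Soat1 and Awat2, between which the order breaks into 4 abundant and 3 scarce transcripts. In rebamipide skin the order of the means was the same, with Fa2h at 12.2 ± 9.82 and Mc5r at 0.573 ± 0.161 CPM per kilobase. With only the first 2 rebamipide libraries the order was unaltered, from 17.6 for Fa2h to 0.649 for Mc5r.

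The vehicle libraries differed among themselves. The first vehicle library was the lowest for the 6 enzyme genes and the third the highest, and Mc5r had the opposite order. The growing hair follicle markers also had the first vehicle library highest, with summed levels of 14335, 6544 and 155 CPM, as had the pigment cell markers with 701, 175 and 23.1 CPM. The label of telogen was thus not met by the growing follicle markers in the first 2 vehicle libraries. The part of hair cycle stage in the results was not tested. Suprabasal keratinocyte markers had it lowest, at 1283, 4921 and 6013 CPM. The summed level of the 7 genes was 386, 684 and 1184 CPM with vehicle and 260, 197 and 13.4 CPM with rebamipide.

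**Figure D3:**
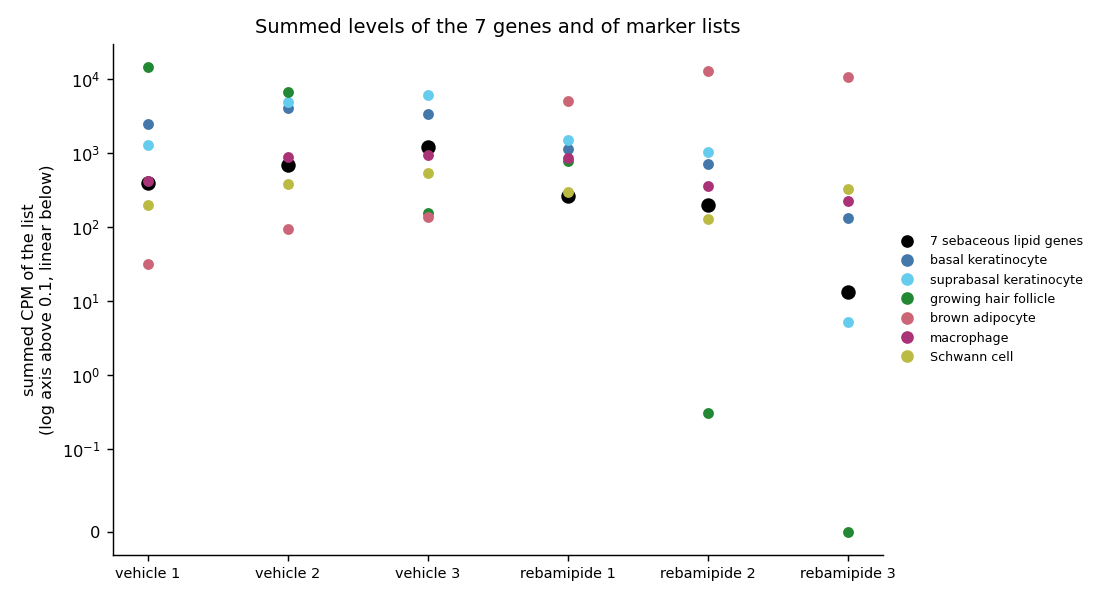
Summed CPM of the 7 genes (black) and of marker lists in each of the 6 libraries, on an axis that is logarithmic above 0.1 and linear below. The 7 genes and the keratinocyte markers are lowest in the third rebamipide library, the growing hair follicle markers reach 0 there, and the brown adipocyte markers are at 4948 CPM or more in each rebamipide library.

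Counts were also related to other genes of the same library, which needs no scaling. Relative to the summed counts of Krt5 and Krt14, the keratins of basal keratinocytes from which sebocytes derive, Far2 stood at 6.99%, 8.86% and 17.2% with vehicle, against 12.1% and 16.1% in rebamipide libraries 1 and 2. Fa2h was at 4.45%, 5.15% and 12.1% against 7.71% and 9.96%, and Soat1 at 9.57%, 6.19% and 12.5% against 7.27% and 11.7%. On this scale the rebamipide values lay within the vehicle range for Far2, Fa2h, Soat1 and Dgat2l6. They lay above it for Awat1 (3.53% and 4.11%, vehicle 1.64% to 3.48%) and Awat2 (0.783% and 0.767%, vehicle 0.473% to 0.686%). Mc5r was at 0.373% and 0.497%, with vehicle values of 1.58%, 0.508% and 0.463%. The third rebamipide library gave no usable ratio, with 4 counts in the denominator.

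Krt79, a keratin of the gland's duct and infundibulum, gave a second reference. Awat1 was at 12.8% and 11.8% of Krt79 counts in the first 2 rebamipide libraries, inside the vehicle range of 10.2% to 14.3%. Far2 was at 43.7% and 46.3%, just under the vehicle range of 48.7% to 69.8%, and Mc5r at 1.35% and 1.43% under that of 1.88% to 13.8%. In the third rebamipide library, with 431 counts of Krt79, Far2 was at 1.86% and Awat1 and Dgat2l6 were at 0, whereas Fa2h was at 23.4% and Soat1 at 37.8%. Mc5r was at 10.2% there, inside its vehicle range, and Awat2 at 8.35%, above its vehicle range of 2.6% to 4.24%. Relative to Far2 itself, Dgat2l6 was at 6.99%, 7.9% and 7.65% with vehicle and at 8.21% and 6.62% in rebamipide libraries 1 and 2, and Fa2h was at 63.6%, 58.1% and 70.1% against 63.7% and 62%. These 2 ratios varied less among the 5 libraries than that of Mc5r, which was at 22.6%, 5.73% and 2.69% of Far2 counts with vehicle and at 3.08% and 3.09% with rebamipide. Soat1 was at 137%, 69.9% and 72.5% of Far2 counts against 60.1% and 72.7%. Awat1 was at 23.5%, 21% and 20.2% with vehicle and above that range with rebamipide, at 29.2% and 25.6%, while Awat2 overlapped between the groups, at 3.99% to 6.95% with vehicle against 6.47% and 4.77%.

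**Figure D4:**
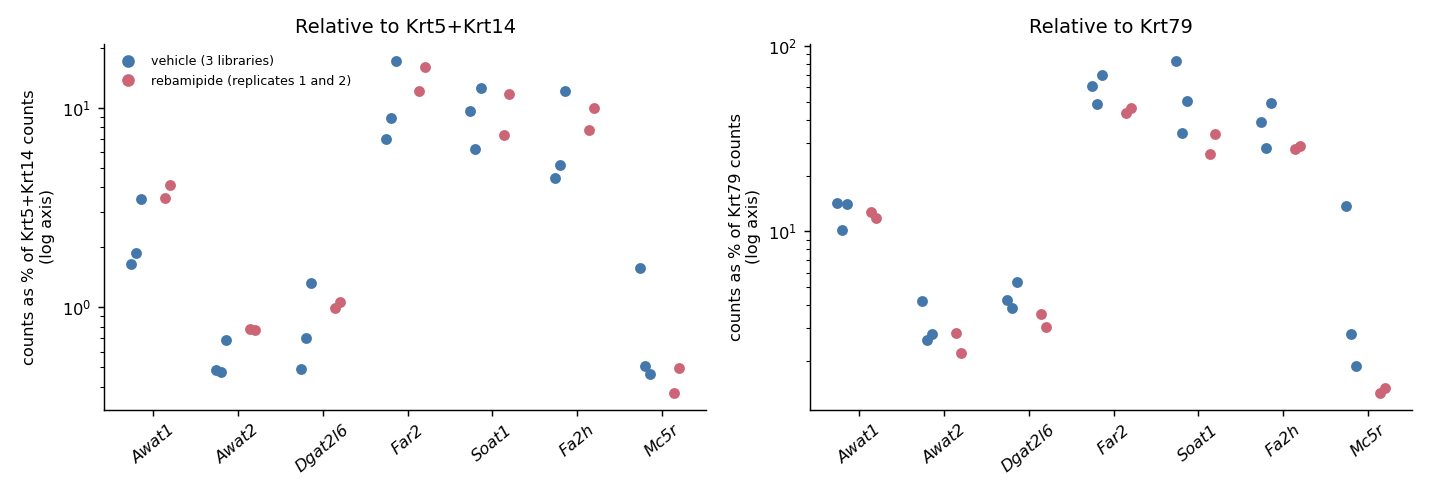
Counts of the 7 genes as a percentage of Krt5 plus Krt14 counts (left) and of Krt79 counts (right), on log axes, in the 3 vehicle libraries and the first 2 rebamipide libraries. Relative to the basal keratins, rebamipide points lie within or above the vehicle points except for 1 library of Mc5r, at 0.373%, and relative to Krt79 they lie below them for Dgat2l6, Far2, Soat1 and Mc5r.

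The 7 genes were not alike in profile. Taken as log2 CPM centred on each gene's mean over the 6 libraries, Fa2h was closest to the mean profile of the 7 (root mean square distance 0.45 on the log2 scale) and Mc5r farthest (1.54). Of all other genes tested, those closest to this mean profile were Rnf225 (distance 0.14), Ankrd35 (0.19), Atp10b (0.2), Elovl7 (0.23) and Serpinb6c (0.26). Rnf225 was at 19.8, 37.3 and 41.2 CPM with vehicle and at 11.4, 7.76 and 0.305 CPM with rebamipide, and none of the 5 passed an adjusted p-value of 0.05 (0.105 to 0.177, edgeR). Without the third rebamipide library these 5 genes stayed at 0.14 to 0.24 from the mean profile, ranking 20 to 114 among all genes. Over those 5 libraries the nearest genes were Fam81a (distance 0.06), Cers4 (0.07), Atp6v0a4 (0.08), Plek (0.1) and Cyp3a57 (0.1). Mc5r was again the farthest member, at 0.9, and the 6 enzyme genes lay at 0.18 to 0.29.

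Genes of 6 neighbouring pathways were read beside these values. Among 9 other genes that make or split lipid esters, of which 8 were tested, 3 rose and 1 fell. Those that rose were Dgat2 (290.8 ± 139 to 2046 ± 750 CPM, log2 fold change 2.81) and Dgat1 (45.6 ± 22.2 to 258 ± 95.6 CPM), which make triglyceride, and Lipa (log2 fold change 2.04), the lysosomal lipase that splits sterol esters. Far1, the widely expressed counterpart of Far2, fell from 44.2 ± 12.3 to 11.4 ± 4.42 CPM (-1.96 in log2, SE 0.36, adjusted p = 0.0181 by edgeR), and with the third rebamipide library left out it was at -1.83 (adjusted p = 0.0517 by edgeR), while Dgat2 (2.49), Dgat1 (2.39) and Lipa (1.98) still passed. Soat2, the sterol acyltransferase of liver and gut, did not pass the filter. All list calls named here and in the next paragraphs were lost in edgeR fits without the second vehicle or the second rebamipide library, where 0 genes and 1 gene of the whole table passed. In these subsets DESeq2 called 4 and 3 of the other ester genes higher and 1 lower in each. Of the cholesterol genes below it called 6 and 7 lower and 0 higher. Of all genes DESeq2 called 9.48% and 14.8% lower and 14% and 17.5% higher there. Counts in the lists are to be read beside the share of all genes in the same edgeR fit. With the first or the third vehicle library left out the share lower was 2.52% or 5.51%, and with the first or the third rebamipide library left out it was 12.8% or 2.49%. The share higher was 10%, 11.4%, 18.3% and 6.6% in the same order.

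Of 15 genes of fatty acid synthesis, desaturation and elongation, 3 rose, Acaca (log2 fold change 2.82), Fasn (2.74) and Scd1 (3.51), all of which fat cells also express. Adipocyte markers summed to 771 to 2998 CPM with vehicle and 3535 to 4836 CPM with rebamipide. Of these 5 markers Adipoq and Plin1 rose, 2 were fitted below 0 and the median log2 fold change was 0.34. Of the 6 brown adipocyte markers 5 rose and the median was 5.19, and the part of either list in the rise of the lipid genes was not tested. On the lower side 0 passed with edgeR, 5 had an unadjusted p-value under 0.05 and DESeq2 called 4. Scd3, a desaturase of sebocytes, was at 63.1 ± 25.3 and 19 ± 20.5 CPM (-1.73 in log2, adjusted p = 0.254 by edgeR), and Elovl4, an elongase of very long fatty acids, at 1044 ± 597 and 203 ± 179 CPM (adjusted p = 0.316 by edgeR). Leaving out the first vehicle library, 1 of the list passed on the higher side. On the lower side 3 passed by edgeR with the first rebamipide library left out. With the third left out, Elovl7, another elongase, passed on the lower side (-2.02, adjusted p = 0.0348 by edgeR), Acaca (2.94) and Fasn (2.93) still passed and Scd1 did not (3.44, adjusted p = 0.0621 by edgeR).

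Of 11 genes of cholesterol synthesis and uptake, the substrate side of Soat1, 5 fell and none rose. Among them were Sqle, the squalene epoxidase (log2 fold change -2.21), Cyp51, the lanosterol demethylase (-1.92), Lss, the lanosterol synthase (-1.05), and Dhcr7, which acts at the end of the pathway (-1.01), with adjusted p-values of 0.0308 to 0.0487 (edgeR). No gene of the list had an unadjusted p-value under 0.05 on the higher side and DESeq2 called 0 there, against 9 lower. Of all genes 6.51% were lower by edgeR and 17.0% by DESeq2. Hmgcs1, an early enzyme of the pathway, was at 307 ± 31.5 and 320.4 ± 123 CPM (adjusted p = 0.908 by edgeR). By edgeR 0 of the 5 calls remained without the first or without the third vehicle library, whereas 8 genes passed without the first and 3 without the third rebamipide library. In the latter fit Sqle was at -1.79 and passed, and Cyp51 (-1.58), Dhcr7 (-0.87) and Lss (-0.81) did not, with adjusted p-values of 0.0541 to 0.104 (edgeR).

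Of 9 genes of gland and duct lineage, Prdm1, a repressor linked to sebaceous progenitors, fell from 59 ± 19.4 to 6.68 ± 4.58 CPM (-3.14 in log2, SE 0.67, adjusted p = 0.0267 by edgeR). Pparg, which drives lipid genes in sebocytes and in fat cells alike, rose from 41.3 ± 21.6 to 273 ± 92.6 CPM (log2 fold change 2.73). The other 7 did not pass, among them Mgst1 (258.7 ± 112 and 698 ± 162 CPM, adjusted p = 0.0508, edgeR) and Krt79 (437 ± 231 and 130.5 ± 104 CPM). By edgeR 0 of the list were lower when the first vehicle library was left out and 2 were higher without the third. With the first rebamipide library left out, 2 were lower and 2 higher. With the third rebamipide library left out Prdm1 (-2.69, adjusted p = 0.0271 by edgeR) and Pparg (2.53, adjusted p = 0.0415 by edgeR) still passed.

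Of 9 melanocortin genes, 8 were in the table and 5 were tested. Mrap, an accessory protein of the adrenocorticotropin receptor that fat cells also express, rose from 23.6 ± 13.9 to 135 ± 38.2 CPM (log2 fold change 2.52), and Pomc, which encodes the melanocortin peptides, from 0.0825 ± 0.041 to 0.418 ± 0.0772 CPM, a level of 2 to 6 counts per vehicle library. At so few vehicle counts Pomc passed the expression filter only through the rebamipide group. Its call is therefore not independent of the filter and is not read as a result. With the third rebamipide library left out neither Mrap (2.38, adjusted p = 0.0554 by edgeR) nor Pomc (2.24, adjusted p = 0.12 by edgeR) passed, and 1 gene of the list did without the first or the third vehicle library. Mc1r, the receptor of pigment cells, was at 8.23, 1.48 and 0.128 CPM with vehicle and at 0.461, 0 and 0 CPM with rebamipide (adjusted p = 0.145, edgeR). Mc2r was at 2.12 ± 1.02 and 2.38 ± 0.543 CPM. Mc3r, Mc4r and Mrap2 did not pass the filter.

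Of 8 ceramide and galactolipid genes next to Fa2h, 2 rose and 1 fell. Cers2, a ceramide synthase, rose from 65.4 ± 18.7 to 272 ± 67 CPM (log2 fold change 2.06), and Hacl1, a peroxisomal lyase that splits 2-hydroxy acyl-CoA, from 0.59 ± 0.0789 to 2.25 ± 0.851 CPM. Gal3st1, which sulfates galactolipids, fell from 3.64 ± 0.7 to 0.879 ± 0.33 CPM (log2 fold change -2.04), and Degs1 was at 117 ± 29.6 and 115 ± 8.64 CPM. Without the first vehicle library 1 gene was higher and 0 were lower by edgeR, and without the third vehicle library 1 was higher. Without the third rebamipide library Cers2 still passed (1.91) and Hacl1 (1.90) and Gal3st1 (-1.94) did not, while Cers3, a ceramide synthase of the epidermis, passed on the lower side (-2.15, adjusted p = 0.0219 by edgeR).

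**Figure D5:**
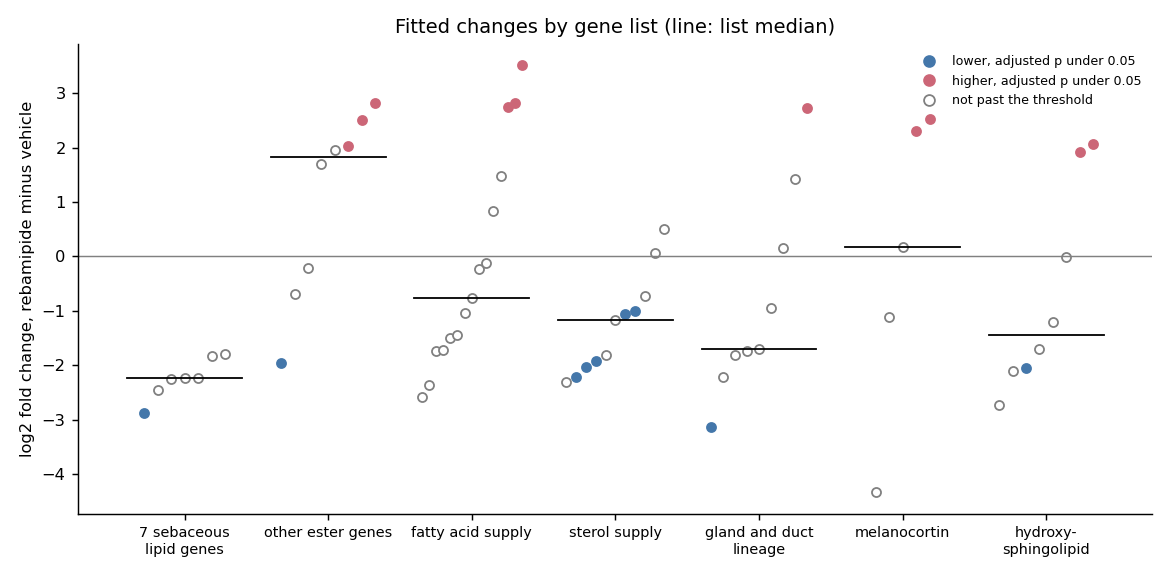
Fitted log2 fold change (rebamipide minus vehicle) of each tested gene of the 7 and of the 6 pathway lists, with a line at each median and filled points past an adjusted p-value of 0.05. All 7 sebaceous lipid genes lie below 0 with 1 filled, 5 of 11 sterol supply genes are filled below 0, and Dgat1, Dgat2 and Lipa are filled above 0 among the other ester genes.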

How the data were processed

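RNA-seq counts were available for 6 libraries of poly-A RNA, 3 per group. The authors deposited whole-number read counts per gene without normalization, and FPKM values that equal the counts over gene length and library total. The submitters' processing notes name fastp 0.22.0, HISAT2 2.1.0, HTSeq 0.9.1 and GRCm39. Counts were tested with edgeR 4.0.16 in R 4.3.3 (TMM, filterByExpr, quasi-likelihood test, Benjamini-Hochberg adjustment over 14875 genes). Standard errors are the log2 fold change divided by the square root of the F statistic. Alternatives were DESeq2 1.42.0, limma 3.58.1 (voom, and log2 of FPKM plus 1 or 0.1), other scalings and filters, a replicate block and each library left out. The scripts were tested on simulated data. Replicates within a group differed by far more than sampling noise (a chi-square of at least 83.1 per degree of freedom). Limits given for 0 counts are 3 counts and cover counting error only. The members, lists and rules were chosen with earlier results of these data known. Named are all 7 genes, of each list the 3 smallest p-values and the 2 highest CPM, further members of lists of at most 10 genes where needed to account for the list, and the 5 nearest profiles. Scd3, Elovl4, Elovl7 in its list, Sqle, Lss and the profiles over 5 libraries were named after their values were seen. Some listed genes that the rule names are not reported here. Values of list genes, levels and profiles without the third rebamipide library were added after seeing the data. Asip and Krt85, 2 listed genes, had no row matched by name. Promoters are RefSeq sequences of GRCm38.p6.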

Additional observations from a re-analysis of the deposited data

How the results depend on the processing

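The direction was lower for each of the 7 genes in all alternatives that gave a value. With at least 10 counts in every library, Awat1, Dgat2l6 and Far2 were left out. Of the 7, the number lower at an adjusted p-value under 0.05 (1 in the edgeR analysis) was 4 with DESeq2, 3 with total counts alone, 5 with log2(FPKM + 1), 3 with log2(FPKM + 0.1) and 0 to 5 with single libraries left out, where 0% to 27.3% of all genes were lower. The number past the thresholds of the study (3) was 7 and 5 with the same FPKM scales and 1 to 7 with single libraries left out, against 9.29% to 24.6% of all genes in the latter. Mc5r passed in 20 of 22 alternatives, Soat1 in 11, Awat2 in 9, Fa2h in 5, Far2 and Dgat2l6 in 1 of 21 each and Awat1 in 0 of 21 (adjusted p from 0.0805).

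For the lists, counts lower in the order other ester, fatty acid, sterol, lineage, melanocortin and sphingolipid (1, 0, 5, 1, 0 and 1 with edgeR) were 1, 4, 9, 3, 1 and 3 with DESeq2, 2, 6, 9, 4, 1 and 4 with log2(FPKM + 1), 2, 5, 9, 3, 1 and 4 with log2(FPKM + 0.1), 2, 4, 7, 2, 0 and 3 with total counts alone, and 1, 2, 5, 2, 0 and 2 with at least 10 counts. The share of all genes lower also differed, from 6.51% with edgeR to 17.0%, 32.3%, 32.1%, 25.2% and 11.9% in these alternatives in turn. The fatty acid list had 1 lower with limma-voom and 1 with RLE, against 6.94% and 7% of all genes. Counts higher were 2 for lineage with DESeq2, limma-voom and at least 10 counts, where 18.3%, 14.4% and 17% of all genes were higher. For melanocortin they were 1 with limma-voom, total counts alone, no filter and at least 10 counts, and 1 for sphingolipid with total counts alone. Of all genes 8.46% were higher with total counts alone and 10.7% with no filter, against 14.1% with edgeR. With single libraries left out, by edgeR or DESeq2, the counts lower ranged from 0 to 2, 0 to 6, 0 to 9 (sterol, 8 without the third vehicle library by DESeq2 and without the first rebamipide library by edgeR), 0 to 4, 0 to 1 and 0 to 4, and the counts higher from 0 to 4, 0 to 5, 0 to 0, 0 to 2, 0 to 2 and 0 to 2. For sterol the range of counts lower was 0 to 8 by edgeR and 6 to 9 by DESeq2. Of all genes, 0% to 27.3% were lower and 0% to 23.8% higher in these fits.

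No pairing of the mice by replicate number was seen. Deviations of same-numbered libraries correlated at -0.0164, -0.0382 and 0.00316 and no library correlated best with its own number. With deviations taken from the mean of only 3 libraries per group, this check cannot exclude shared handling by number. With a replicate block 1 of the 7 passed the thresholds of the study, against 14% of all genes, Mc5r kept its call (adjusted p = 0.0177, edgeR), and the sterol list had 0 lower, the fatty acid list 1 lower, melanocortin 1 lower and 1 higher, lineage 2 higher and sphingolipid 1 higher. Of all genes 5.75% were lower and 9.63% higher in that fit at an adjusted p-value under 0.05. The cause of these shifts was not tested. Awat1 and Dgat2l6 had 0 counts in the third rebamipide library, which allow up to 0.114 CPM. That library was not the shallowest, with 34706852 counts in total against 32709801 in the first rebamipide library.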
